A study of Mus musculus with 12 samples.

Results

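The genes described here encode the constitutive proteasome, the enzyme complex that degrades ubiquitin-tagged proteins, together with the particles that cap it. They were taken as every gene of the count table whose symbol starts with Psma, Psmb, Psmc, Psmd or Psme followed by a number, leaving out Psmb8, Psmb9 and Psmb10, which encode the cytokine-inducible catalytic subunits, and pseudogenes. This gave 40 of the 13780 genes in the table, 14 of the core particle (Psma and Psmb) and 26 of the regulators (Psmc, Psmd and Psme). All 40 passed the filter on CPM (counts of a gene per 1000000 counts of its library), at least 1 in at least 3 libraries, and were among the 13767 genes tested. By role they were 7 alpha ring genes, 7 beta ring genes, 6 ATPases and 3 non-ATPases of the base, 8 genes of the lid, 3 assembly chaperones of the base and 4 activators. The symbols of the other 2, Psmc3ip and Psme2b, fit the pattern, but Psmc3ip encodes a protein of meiotic recombination and Psme2b is a near copy of Psme2. The tissue-restricted core genes Psma8 and Psmb11 were absent from the count table under these symbols.

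RNA sequencing was performed on 12 libraries of CD8+ T cells, 4 for each of 3 groups, isolated from spleens of C57BL/6J mice aged 8 to 12 weeks by positive selection on magnetic beads. The naive group was frozen directly after isolation, without stimulation. The media and lactate groups were both activated for 72 h with beads carrying antibodies to CD3 and CD28 and with 10 U/ml of human IL-2, in plain medium or in medium with 40 mM sodium lactate, and their donors were 5 mice, of which 3 gave cells to both conditions. The control medium held no added sodium chloride, so the lactate anion cannot be told apart from the added sodium and osmolarity. Total counts ran from 16439750 to 18601223 in the naive libraries, from 15842423 to 20922872 in media and from 14726904 to 21478137 with lactate. By the record, the 4 naive libraries came from separate mice, as did the 4 libraries of each activated group, so the spread between replicates includes that between animals.

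The 20S core of the proteasome is a barrel of stacked rings, in which alpha subunits form the outer rings and the gate, and beta subunits the inner rings with the catalytic sites facing the chamber. The 19S regulator docks on the barrel ends, where its lid removes ubiquitin chains and its base, a ring of ATPases, unfolds the substrate and threads it inward. In CD8+ T cells, proteasomes take part in protein turnover, in cell cycle progression and in making peptides for MHC class I.

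The labelled cell type was compared with marker genes. Summed over Cd8a, Cd8b1, Cd3d, Cd3e and Cd3g, of which Cd8a had the highest mean CPM, the CD8 T cell markers stood at 3087, 2635, 3582 and 1579 CPM in naive replicates 1 to 4, at 2784, 3462, 2738 and 3093 CPM in media and at 2049, 2609, 2189 and 2312 CPM with lactate. Naive replicate 4 was the lowest of all 12 libraries. All 4 lactate libraries were below all 4 media libraries in this sum. Of the 5 markers, 3 were called lower with lactate than in media by edgeR at an adjusted p of at most 0.01. Over all genes tested, 11.1% were called lower. The 3 were the CD3 genes Cd3d, Cd3e and Cd3g (log2 fold changes -0.74, -0.91 and -0.80). The genes of CD8 itself, Cd8a (-0.15) and Cd8b1 (0.29), did not pass. With a block for the mice that gave both conditions, the 3 calls were lost (adjusted p = 0.0381, 0.0109 and 0.106), each at the highest of its 24 alternatives, the lowest being 9.74e-06, 7.3e-11 and 0.000474. Cd3g (adjusted p = 0.0091) missed the threshold, by its adjusted p in brackets, with upper-quartile factors (0.0105), with the title number as a block (0.0176), with donors as a block (0.106) and with a term for the library numbers (0.0141), and without naive replicate 1 or 2 (0.0118 and 0.0111), without media replicate 1, 2, 3 or 4 (0.015, 0.0306, 0.0109 and 0.0228) and without lactate replicate 1, 2, 3 or 4 (0.0305, 0.0113, 0.0277 and 0.0189). The part of these markers in the results was not tested. The naive libraries also held RNA of other cell types. Over 3 B cell markers, led by Cd79b, the sums were 479.7, 688, 277 and 536 CPM in the naive libraries, 7.68, 10.4, 5.91 and 11.8 CPM in media and 4.41, 6.76, 6.44 and 6.26 CPM with lactate. Over 5 myeloid markers, led by Csf1r, they were 1395, 1038, 455 and 420.3 CPM in the naive libraries and at most 0.982 CPM in any activated library. Red cell markers (3 genes, led by Hba-a1) summed to 824, 2939, 338 and 75.7 CPM in the naive libraries and to at most 1.74 CPM after activation. NK cell markers (3 genes, led by Klrb1c) ran from 4.58 to 10.99 CPM and CD4 T cell markers (2 genes, led by Cd4) from 12.1 to 30.5 CPM in the naive group, and were at most 0.820 and 1.70 CPM after activation. All of these B cell, myeloid, red cell, NK cell and CD4 markers were called lower in media than in naive cells.

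Proteasome genes took a larger share of all counts in activated cells than in naive cells, and the largest with lactate. The 40 genes held 0.342% ± 0.0162 of counts in the naive group (SD, n = 4), 0.469% ± 0.0390 in media (SD, n = 4) and 0.679% ± 0.0110 with lactate (SD, n = 4). The ranges of the groups did not overlap, running from 0.324% to 0.363%, from 0.413% to 0.503% and from 0.669% to 0.693%. In bulk RNA, fewer cells of a type and less RNA per cell cannot be told apart.

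To see how lactate during activation changed these genes, the lactate libraries were compared with the media libraries. Of 40 members, 31 were higher with lactate and 0 lower at an adjusted p of at most 0.01 (edgeR quasi-likelihood test, Benjamini-Hochberg adjustment over all genes tested). Among all genes tested, 13.9% were called higher and 11.1% lower. The median log2 fold change of the members was 0.60, a 1.52-fold increase, against -0.0016 over all genes, and the members called higher rose between 1.27-fold and 2.43-fold. Core and regulator genes had nearly the same median but differed in spread: 13 of 14 core genes were higher (median 0.60, from 0.25 to 1.06), and 18 of 26 regulators (median 0.60, from -0.37 to 1.28). Without Psmc3ip and Psme2b, 17 of 24 regulators were higher (median 0.67, from -0.096 to 1.28). The 17 base and lid subunits had a median of 0.83, with 15 called higher.

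Beside the count of 0 lower members, edgeR, DESeq2 and limma voom each gave 1 gene, Psme2b, at an unadjusted p under 0.05, and each called 0. The libraries of the groups did not overlap for 36 members, with all lactate libraries above all media libraries in 35 (23.2% of all genes) and below in 1 (21.5%). All 14 core genes were among the 35. Within the 3 mice that gave both conditions, 37, 36 and 37 of 40 members were higher with lactate. Their median log2 differences were 0.56, 0.48 and 0.59, against 0 over all genes in each mouse. In every mouse, 35 members were higher.

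With donors as a block, 19 of the 31 members stayed past the threshold (7 core genes and 12 regulators), 37 were positive and the median was 0.54. Over all genes this fit called 992 genes in place of 3451, with 4.54% higher. The records number the libraries 1 to 9 and 16 to 26, and the median log2 difference was 0.60 within the lower numbers (2 lactate and 3 media libraries) and 0.61 within the higher (2 lactate libraries and 1 media library), with 38 members positive in each. Media replicate 2 was the lowest media library for 34 of the 40 members and lactate replicate 2 the lowest lactate library for 22. Without media replicate 2, 29 members were called higher, and without lactate replicate 2, 30.

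**Figure D1:**
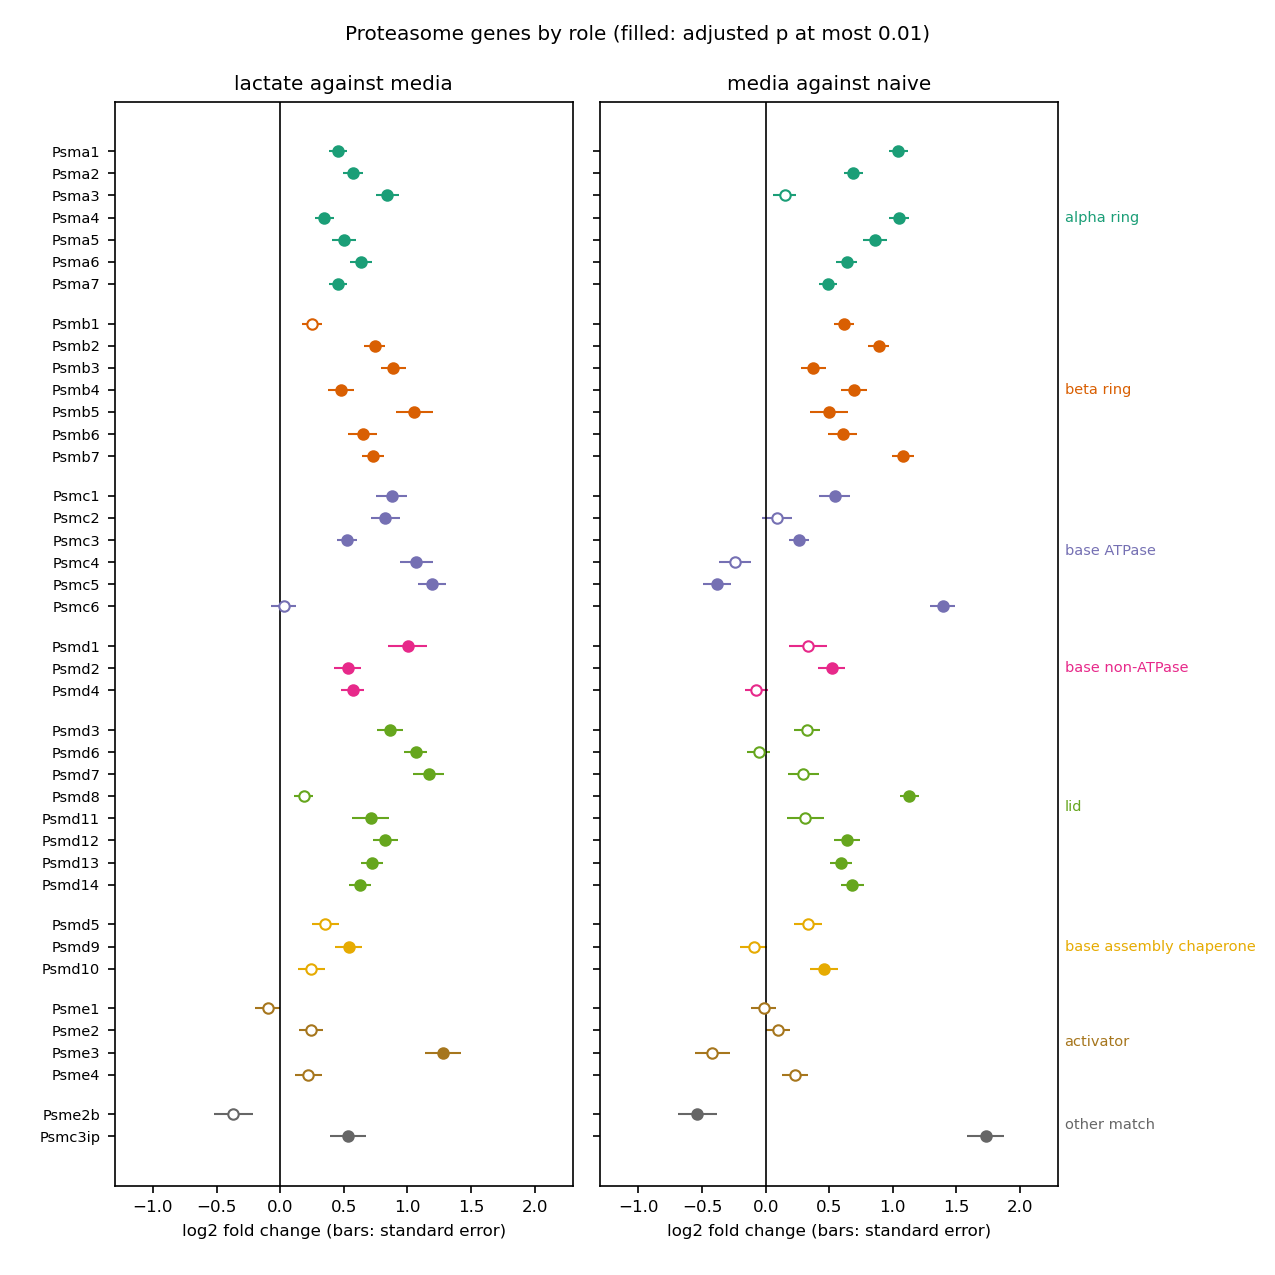
Log2 fold changes of the 40 proteasome genes by role, lactate against media on the left and media against naive on the right (points, edgeR estimates; bars, standard error; filled points, adjusted p at most 0.01). With lactate, 31 points are filled to the right of 0 and 0 to the left, while media against naive has 23 filled to the right and 2, Psmc5 and Psme2b, to the left.

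Of the 7 beta ring genes, 6 were higher with lactate (median 0.73). The largest increase of the ring was that of Psmb5 (ENSMUSG00000022193, chr14:54614119-54618022, minus strand), which encodes the chymotrypsin-like subunit. Psmb5 stood at 12.2, 12.9, 12.4 and 15.9 CPM in the naive libraries, 22.4, 13.9, 18.95 and 20.2 CPM in media and 42.2, 40.5, 36.5 and 37.7 CPM with lactate. Every lactate library was well above every media library, whereas media replicate 2 lay among the naive libraries. Psmb5 was 2.08-fold higher with lactate than in media (log2 fold change 1.06 ± 0.15 SE, adjusted p = 0.000231).

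Psmb6 (ENSMUSG00000018286, chr11:70525367-70527858, plus strand) encodes the caspase-like subunit and stood at 70, 69.3, 65.6 and 91.8 CPM in the naive libraries, 121, 101, 107 and 124 CPM in media and 171, 166, 186 and 185 CPM with lactate. The 3 groups were separate, with naive replicate 4 above the other naive libraries. The increase with lactate was 1.57-fold (log2 fold change 0.65 ± 0.11 SE, adjusted p = 0.00093), and missed the threshold with donors as a block (0.57, adjusted p = 0.0258; from 8.74e-06 to 0.0258 over its 24 alternatives). Psmb7 (ENSMUSG00000026750, chr2:38588036-38644087, minus strand), the trypsin-like subunit, stood at 54.3, 57.4, 59.2 and 60.3 CPM in the naive libraries, 126, 105, 129 and 129.8 CPM in media and 190.2, 202, 212 and 209 CPM with lactate. Its groups did not overlap, and media replicate 2 was the lowest activated library. Psmb7 rose 1.66-fold with lactate (log2 fold change 0.73 ± 0.086 SE, adjusted p = 0.000101).

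Among the non-catalytic beta genes, Psmb2 (ENSMUSG00000028837, chr4:126677630-126709714, plus strand) stood at 63.97, 65.3, 65.6 and 69.2 CPM in the naive libraries, 129, 108, 122 and 131 CPM in media and 196, 192, 215 and 215 CPM with lactate. The groups were separate, and the increase with lactate was 1.67-fold (log2 fold change 0.74 ± 0.083 SE, adjusted p = 8.19e-05). Psmb1 (ENSMUSG00000014769, chr17:15475021-15499751, minus strand) was the beta ring gene with the smallest change. It stood at 155, 169, 171 and 164 CPM in the naive libraries, 249.6, 237, 249.8 and 271 CPM in media and 273, 309, 316 and 302 CPM with lactate. The lactate libraries lay just above the media libraries without overlap, the lowest lactate value being close to the highest media value. The log2 fold change of 0.25 ± 0.078 SE did not pass at adjusted p = 0.0221 but did with DESeq2 (0.00921), with adjusted p from 0.00921 to 0.157 over its 24 alternatives. Here and below, a value in brackets after an alternative or a library left out is its adjusted p. Psmb3 and Psmb4 were also higher (0.89 and 0.48). The call of Psmb4 (adjusted p = 0.00297) was lost with donors as a block (0.0274), and without lactate replicate 3 or 4 (0.0119 and 0.0103), with adjusted p from 0.000347 to 0.0274 over its 24 alternatives.

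**Figure D2:**
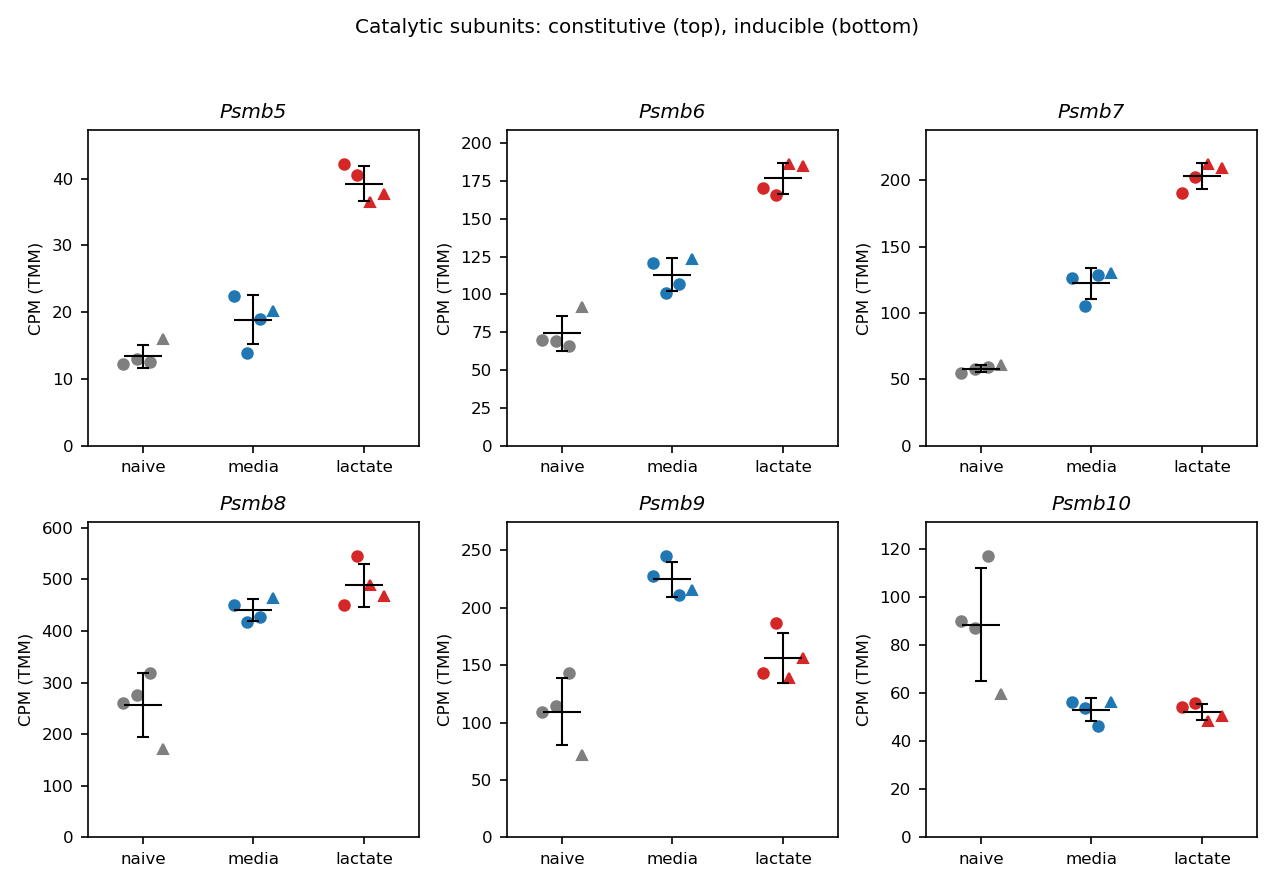
Level of each catalytic subunit gene in every library, in CPM scaled by TMM, for the constitutive Psmb5, Psmb6 and Psmb7 (top) and the inducible Psmb8, Psmb9 and Psmb10 (bottom); circles are libraries numbered 1 to 9, triangles those numbered 16 to 26, and the bars the mean ± SD of 4 libraries. Psmb5 lies between 13.9 and 22.4 in media and between 36.5 and 42.2 with lactate, while the media and lactate libraries of Psmb8 and Psmb10 overlap.

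The alpha ring genes were all higher with lactate, 7 of 7 (median 0.50, from 0.35 to 0.84). Psma3 (ENSMUSG00000060073, chr12:70974621-70996347, plus strand) had the largest change. It stood at 61.5, 63.4, 58.3 and 63.6 CPM in the naive libraries, 76.8, 58.3, 69.9 and 68.9 CPM in media and 125, 117, 128 and 120.3 CPM with lactate. The naive and media libraries overlapped, and all lactate libraries were above both. Psma3 was 1.79-fold higher with lactate (log2 fold change 0.84 ± 0.089 SE, adjusted p = 6.36e-05).

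Psma4 (ENSMUSG00000032301, chr9:54950790-54958030, plus strand) had the smallest change of the ring and stood at 56.9, 58.6, 62.3 and 66.4 CPM in the naive libraries, 122, 124, 126 and 132 CPM in media and 154, 155, 166 and 169 CPM with lactate. The step from naive to media was larger than the step from media to lactate, and no libraries overlapped between groups. The increase with lactate was 1.27-fold (log2 fold change 0.35 ± 0.076 SE, adjusted p = 0.0034). This call was lost with donors as a block (0.0472), and without media replicate 1, 2 or 3 (0.0115, 0.0102 and 0.0103) and without lactate replicate 3 or 4 (0.015 and 0.0161), with adjusted p from 7.39e-05 to 0.0472 over its 24 alternatives. Psma1, Psma5 and Psma7 missed the threshold with donors as a block (adjusted p = 0.0169, 0.0179 and 0.0166), each the highest of its 24 alternatives, the lowest being 7.8e-09, 3.34e-05 and 1.4e-10. Psma2, Psma3 and Psma6 passed it there.

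Of the 6 ATPases of the base, 5 were higher with lactate (median 0.85), and the ring divided between its extremes, Psmc5 and Psmc6. Psmc5 (ENSMUSG00000020708, chr11:106256154-106263120, plus strand) stood at 72.2, 76.2, 74.2 and 88.96 CPM in the naive libraries, 67.2, 49.5, 61.2 and 60.9 CPM in media and 151, 124, 137 and 133 CPM with lactate. The media libraries were the lowest of the 3 groups and the lactate libraries the highest, without overlap. Psmc5 was 2.28-fold higher with lactate than in media (log2 fold change 1.19 ± 0.11 SE, adjusted p = 5.56e-05). Psmc6 (ENSMUSG00000021832, chr14:45329788-45349705, plus strand), another ATPase of the same ring, stood at 76.03, 80.2, 82.01 and 101 CPM in the naive libraries, 209, 219, 242 and 220.2 CPM in media and 215, 241, 237 and 215 CPM with lactate. Its lactate libraries lay within the range of the media libraries, and both well above the naive ones. The log2 fold change with lactate was 0.028 ± 0.097 SE (adjusted p = 0.854), and its sign turned under some alternatives, the lowest being -0.013 with total counts. The other ATPase genes, Psmc1, Psmc2, Psmc3 and Psmc4, rose by 0.88, 0.83, 0.53 and 1.07 on the log2 scale.

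The 3 non-ATPase genes of the base were all higher with lactate (median 0.57). Psmd1 (ENSMUSG00000026229, chr1:86064387-86139151, plus strand), a large scaffold of the base, stood at 81.8, 80.6, 77.5 and 105 CPM in the naive libraries, 121, 84.7, 119.7 and 109 CPM in media and 247, 166, 235 and 221 CPM with lactate. The lactate libraries were all above the media libraries, with lactate replicate 2 and media replicate 2 the lowest of their groups. Its increase was 2.00-fold (log2 fold change 1.00 ± 0.15 SE, adjusted p = 0.000374; with donors as a block 0.84, adjusted p = 0.0112, from 1.16e-07 to 0.0112 over its 24 alternatives). Psmd2 (ENSMUSG00000006998, chr16:20651652-20663414, plus strand), a scaffold that receives shuttle factors, stood at 158, 161, 143 and 187 CPM in the naive libraries, 257, 204, 247 and 222 CPM in media and 355, 300.5, 339 and 349.6 CPM with lactate. No library overlapped between groups. Its log2 fold change was 0.53 ± 0.11 SE, adjusted p = 0.00191, and 0.47, adjusted p = 0.0352 with donors as a block (from 9.8e-05 to 0.0352 over its 24 alternatives). Psmd4, a ubiquitin receptor, had a log2 fold change of 0.57 ± 0.090 SE, adjusted p = 0.000479, which missed the threshold with donors as a block (0.52, adjusted p = 0.0178; from 4.14e-07 to 0.0178 over its 24 alternatives).

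In the lid, 7 of 8 genes were higher with lactate (median 0.77). Psmd7 (ENSMUSG00000039067, chr8:107580381-107588464, minus strand), the partner of the deubiquitinase Psmd14, had the largest change and stood at 56.8, 63.3, 64.7 and 74.96 CPM in the naive libraries, 88.6, 61.5, 85.7 and 82.9 CPM in media and 190.1, 167, 186 and 173 CPM with lactate. All lactate libraries were above all others, while naive and media libraries overlapped. Psmd7 was 2.24-fold higher with lactate (log2 fold change 1.17 ± 0.12 SE, adjusted p = 6.36e-05). Psmd8 (ENSMUSG00000030591, chr7:29174188-29180701, minus strand) had the smallest change of the lid and stood at 109.8, 123, 122 and 116 CPM in the naive libraries, 267, 243, 259.6 and 259.6 CPM in media and 272, 291, 309 and 299.9 CPM with lactate. The lactate libraries lay just above the media libraries, and both far above the naive ones. Its log2 fold change was 0.19 ± 0.075 SE and did not pass (adjusted p = 0.0664). The deubiquitinase gene Psmd14 and the structural genes Psmd3, Psmd6, Psmd11, Psmd12 and Psmd13 had log2 fold changes from 0.63 (Psmd14) to 1.06 (Psmd6). Of these, Psmd11 missed the threshold with donors as a block (0.64, adjusted p = 0.0445; from 0.000114 to 0.0445 over its 24 alternatives).

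Of the 3 chaperones that assemble the base and are absent from the finished particle, 1 was higher with lactate. Psmd9 (ENSMUSG00000029440, chr5:123169413-123250131, plus strand) stood at 23.4, 25.1, 22.5 and 21.96 CPM in the naive libraries, 21.7, 19.2, 21.3 and 24.9 CPM in media and 32.1, 29.6, 30.8 and 33.9 CPM with lactate. The naive and media libraries overlapped and the lactate libraries were all higher. Its log2 fold change was 0.54 ± 0.10 SE, adjusted p = 0.00167, and 0.49, adjusted p = 0.0199 with donors as a block (from 1.69e-05 to 0.0199 over its 24 alternatives). Psmd5 (ENSMUSG00000026869, chr2:34849734-34874968, minus strand) stood at 46.6, 50.6, 44.4 and 36.97 CPM in the naive libraries, 59.5, 48.6, 55.3 and 61.1 CPM in media and 78.3, 67.3, 71.3 and 70.4 CPM with lactate. The lactate libraries did not overlap with the media libraries, but the log2 fold change of 0.36 ± 0.11 SE did not pass (adjusted p = 0.0209). It passed with a fit of those groups alone (0.0088) and without naive replicate 4 (0.00515), with adjusted p from 0.00515 to 0.147 over its 24 alternatives. Psmd10 (ENSMUSG00000031429, chrX:140948429-140956728, minus strand), also known as gankyrin, stood at 20.9, 18.1, 19.8 and 22.2 CPM in the naive libraries, 29.9, 27.1, 24.02 and 30.2 CPM in media and 30.5, 33.3, 35.5 and 32.8 CPM with lactate. The lowest lactate library was near the highest media library, and the log2 fold change was 0.25 ± 0.11 SE (adjusted p = 0.0881).

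The activators dock on the core in place of the 19S regulator. Psme3 (ENSMUSG00000078652, chr11:101316213-101323537, plus strand), which forms a nuclear activator ring by itself, stood at 171, 209.9, 172 and 195 CPM in the naive libraries, 165, 116, 147 and 131 CPM in media and 405, 266, 348 and 340.1 CPM with lactate. The lactate libraries were the highest, with the widest spread, and the media libraries the lowest. Psme3 had the largest log2 fold change of all 40 members, 1.28 ± 0.14 SE, adjusted p = 7.66e-05, a 2.43-fold increase. The interferon-inducible pair Psme1 and Psme2, whose products form a joint ring, did not pass the test. Psme1 (ENSMUSG00000022216, chr14:55578123-55581529, plus strand) stood at 277, 289, 346 and 251 CPM in the naive libraries, 275, 290.1, 279.5 and 304 CPM in media and 250.4, 275, 270.0 and 279 CPM with lactate. The 3 groups overlapped, and the log2 fold change with lactate was -0.096 ± 0.098 SE (adjusted p = 0.469). Psme2 (ENSMUSG00000079197, chr14:55587441-55591113, minus strand) stood at 134, 134, 159.5 and 127 CPM in the naive libraries, 161, 144, 144 and 146 CPM in media and 157, 184, 191 and 172 CPM with lactate. Lactate replicate 1 lay below media replicate 1, and the log2 fold change was 0.24 ± 0.094 SE (adjusted p = 0.0558).

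Psme4 (ENSMUSG00000040850, chr11:30771726-30880361, plus strand), the gene of a large nuclear activator, stood at 112, 111, 108 and 126 CPM in the naive libraries, 138, 132, 147 and 121 CPM in media and 169, 129, 169 and 160.3 CPM with lactate. Its media and lactate libraries overlapped through lactate replicate 2, and the log2 fold change was 0.22 ± 0.10 SE (adjusted p = 0.104). Psme2b (ENSMUSG00000078153, chr11:48945354-48946190, minus strand) stood at 10.9, 9.07, 10.9 and 11.8 CPM in the naive libraries, 6.43, 8.35, 6.63 and 8.03 CPM in media and 5.18, 5.24, 6.08 and 6.31 CPM with lactate. Its libraries fell from naive to media to lactate without overlap, but the log2 fold change with lactate, -0.37 ± 0.16 SE, did not pass (adjusted p = 0.0792). Reads of Psme2 and Psme2b can be hard to place because the sequences are nearly identical, so both values are uncertain. Psmc3ip (ENSMUSG00000019303, chr11:101091823-101095436, minus strand) stood at 2.71, 3.42, 3.02 and 3.59 CPM in the naive libraries, 10.8, 8.84, 11.6 and 11.03 CPM in media and 15.3, 15.6, 16.1 and 14.3 CPM with lactate. All groups were separate, at low levels. Its log2 fold change with lactate was 0.53 ± 0.14 SE, adjusted p = 0.00941. This call was lost with size factors of DESeq2 (0.0149), with upper-quartile factors (0.0132), with total counts (0.0176), with the title number as a block (0.0178), with donors as a block (0.106) and with a term for the library numbers (0.0114), and without naive replicate 2 or 3 (0.0146 and 0.0152), without media replicate 1, 2, 3 or 4 (0.0221, 0.0316, 0.0152 and 0.0203) and without lactate replicate 1, 2, 3 or 4 (0.022, 0.0207, 0.0351 and 0.0219), with adjusted p from 0.00144 to 0.106 over its 24 alternatives.

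**Figure D3:**
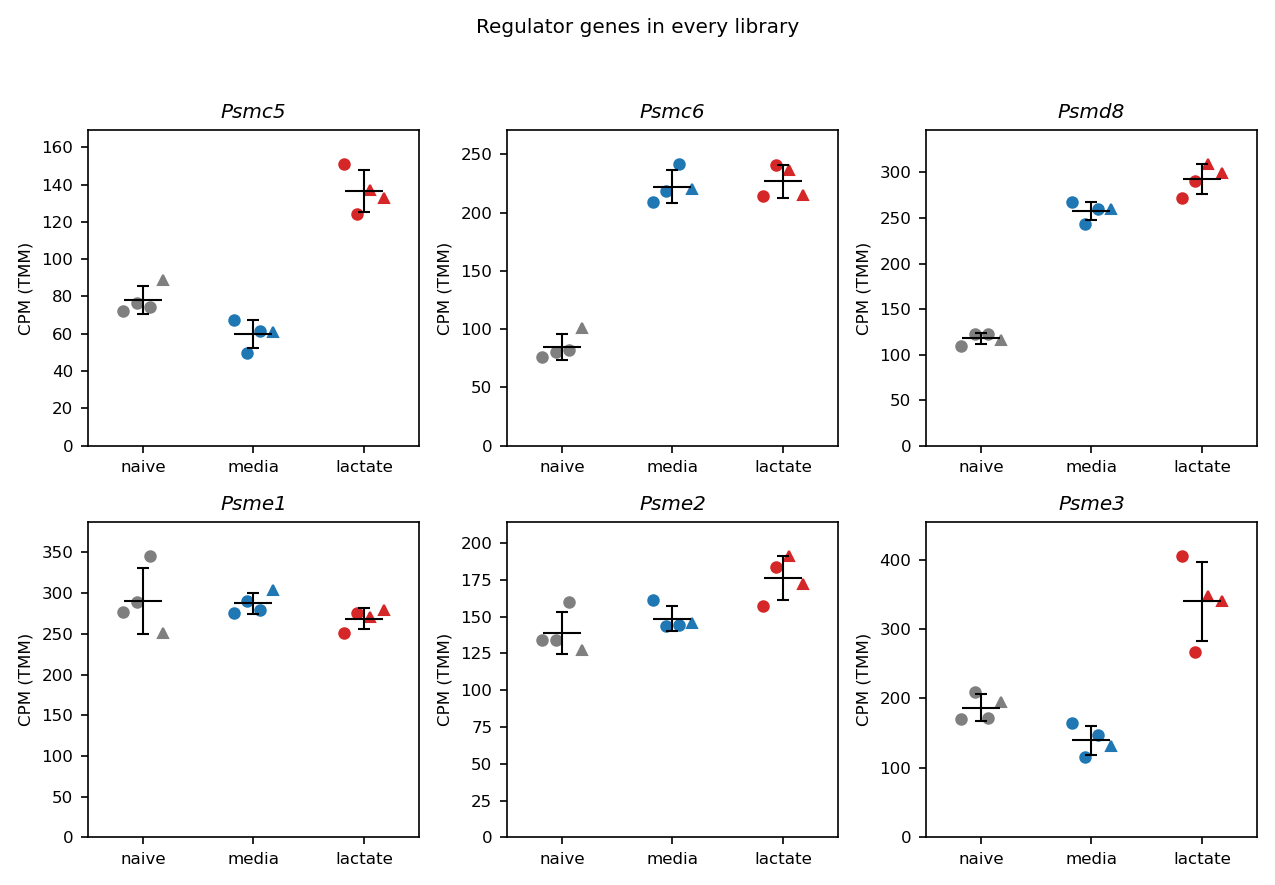
Level of 6 regulator genes in every library, in CPM scaled by TMM (circles, libraries numbered 1 to 9; triangles, 16 to 26; bars, mean ± SD of 4 libraries). Psmc5 and Psme3 are lowest in media and highest with lactate, the lactate libraries of Psmc6 lie within the range of the media libraries, and the 3 groups of Psme1 overlap.

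Activation in plain medium, compared with naive cells, asks how the same genes stood before and after 72 h of stimulation. Of 40 members, 23 were higher in media and 2, Psmc5 and Psme2b, lower (edgeR quasi-likelihood test with Benjamini-Hochberg adjustment), where 28.5% of all genes tested were called higher and 29% lower. The median log2 fold change was 0.47 against -0.029 over all genes. Core genes were mostly higher, 13 of 14 (median 0.66), the exception being Psma3, and 12 of 14 with DESeq2 and with limma voom. Regulators were mixed: 10 of 26 higher, 2 lower and 14 past neither side (median 0.30, and 0.19 without naive replicate 2). This comparison shares the media libraries with that of lactate against media.

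The libraries did not overlap for 20 members with media above naive (30.7% of all genes) and for 3 with media below (30.5%). Within the libraries numbered 1 to 9 the median log2 difference was 0.48, and within those numbered 16 to 26, with 1 library in each group, 0.36. The B cell, myeloid and red cell markers, present in the naive libraries at 277 to 688, 420.3 to 1395 and 75.7 to 2939 CPM, were at 5.91 to 11.8, 0.223 to 0.982 and 0 to 0.231 CPM in media, and their part in these values was not tested. Naive replicate 4 was the highest naive library for 27 of 40 members. Without it, 24 members were called higher and 0 lower. Without media replicate 2, 26 were higher and 1 lower. The number lower was also 1 without naive replicate 1, 0 without media replicate 3, and 3 without naive replicate 3 or lactate replicate 2.

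Among core genes, the catalytic subunit genes rose with activation by 0.50 (Psmb5), 0.61 (Psmb6) and 1.08 (Psmb7) on the log2 scale. The call of Psmb5 (adjusted p = 0.00985) was lost with DESeq2 (0.0136), with limma voom (0.0163), with size factors of DESeq2 (0.023), with upper-quartile factors (0.0128), with total counts (0.012), with the stricter count filter (0.0159), with a fit of those groups alone (0.0298), with the title number as a block (0.0153) and with a term for the library numbers (0.0106), and without naive replicate 1, 2 or 3 (0.0345, 0.0599 and 0.065), without media replicate 1, 3 or 4 (0.0363, 0.0216 and 0.0551) and without lactate replicate 1, 2, 3 or 4 (0.0132, 0.0136, 0.0301 and 0.032), with adjusted p from 0.000989 to 0.065 over its 23 alternatives. Psmb3 rose by 0.37 (adjusted p = 0.00428), a call that was lost with size factors of DESeq2 (0.0141) and with a fit of those groups alone (0.0135), and without naive replicate 1, 2 or 3 (0.0163, 0.0261 and 0.0388), without media replicate 1, 3 or 4 (0.0159, 0.0116 and 0.0306) and without lactate replicate 3 or 4 (0.0201 and 0.0209), with adjusted p from 0.000438 to 0.0388 over its 23 alternatives. Psmb2 and Psma4 rose by 0.89 and 1.05, and Psmb1 by 0.62. Psma3 had a log2 fold change of 0.15 ± 0.089 SE (adjusted p = 0.151), the smallest of the core.

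Among regulators, Psmc6 and Psmd8, which did not pass the test between lactate and media, had the largest activation changes of the base and lid. The media libraries enter these comparisons with opposite sign, so a high media level raises 1 change and lowers the other. Psmc6 rose 2.62-fold (log2 fold change 1.39 ± 0.10 SE, adjusted p = 1.34e-07) and Psmd8 2.19-fold (1.13 ± 0.076 SE, adjusted p = 8.05e-08). Psmd2 rose by 0.52 and Psmd10 by 0.46. The call of Psmd10 (adjusted p = 0.00235) was lost without naive replicate 2 or 3 (0.0286 and 0.0205), without media replicate 4 (0.0203) and without lactate replicate 4 (0.0104), with adjusted p from 0.000998 to 0.0286 over its 23 alternatives. The ATPase genes Psmc1 and Psmc3 rose by 0.54 and 0.27. For Psmc1 (adjusted p = 0.00155) the call was lost without naive replicate 2 or 3 (0.014 and 0.0173) and without media replicate 4 (0.0113), with adjusted p from 0.000118 to 0.0173 over its 23 alternatives. For Psmc3 (adjusted p = 0.0093) it was lost in 18 of 23 alternatives, with DESeq2 (0.0178), with limma voom (0.0103), with size factors of DESeq2 (0.0419), with upper-quartile factors (0.0149), with total counts (0.0101), with the stricter count filter (0.0225), with a fit of those groups alone (0.0228) and with the title number as a block (0.012), and without naive replicate 1, 2 or 3 (0.0354, 0.132 and 0.111), without media replicate 1, 3 or 4 (0.0296, 0.0233 and 0.0945) and without lactate replicate 1, 2, 3 or 4 (0.0118, 0.0107, 0.0547 and 0.0567), with adjusted p from 0.00242 to 0.132 over its 23 alternatives, and the log2 fold change was 0.17 without naive replicate 2. Psmc3ip rose 3.31-fold (1.73 ± 0.15 SE, adjusted p = 5.93e-07).

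Psmc5 fell by 0.38 on the log2 scale (adjusted p = 0.00731). This call was lost with total counts (0.0106) and with a fit of those groups alone (0.0196), and without naive replicate 4 (0.0144) and without media replicate 2 or 3 (0.0201 and 0.0156), with adjusted p from 0.000579 to 0.0201 over its 23 alternatives. Psme2b fell by 0.54 (adjusted p = 0.0078), and its call was lost with a fit of those groups alone (0.0199) and with the title number as a block (0.0111), and without naive replicate 1 or 4 (0.0169 and 0.0128) and without media replicate 1 or 3 (0.0283 and 0.0272), with adjusted p from 0.000271 to 0.0283 over its 23 alternatives. Psme3 had a log2 fold change of -0.42 ± 0.14 SE that did not pass (adjusted p = 0.0181) but did with DESeq2 (0.00344) and with size factors of DESeq2 (0.00966), and without naive replicate 3 (0.00978), without media replicate 1 (0.0096) and without lactate replicate 2 (0.00963), with adjusted p from 0.00344 to 0.0554 over its 23 alternatives. Psmd7 and Psmd5 had log2 fold changes of 0.30 and 0.33 and did not pass (adjusted p = 0.0465 and 0.0173). Without media replicate 2 both passed, at adjusted p = 0.00385 and 0.00759, the lowest of their 23 alternatives, of which the highest were 0.226 and 0.119. Psmd9 and Psme1, at -0.095 and -0.016, did not pass.

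Lactate against naive, which shares libraries with both comparisons, gave 38 of 40 members higher and 1, Psme2b, lower, where 33% of all genes tested were called higher and 32% lower by edgeR's quasi-likelihood test with Benjamini-Hochberg adjustment. The member that passed neither side was Psme1 (log2 fold change -0.11, adjusted p = 0.315). All 14 core genes were higher (median 1.27) and 24 of 26 regulators (median 0.96). The largest were Psmc3ip at 2.26, Psmb7 at 1.82 and Psmb2 at 1.63. As in media, markers of B cells, myeloid cells and red cells were far lower here than in naive cells, with B cell markers at 4.41 to 6.76 CPM with lactate against 277 to 688 CPM, and their part was not tested.

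**Figure D4:**
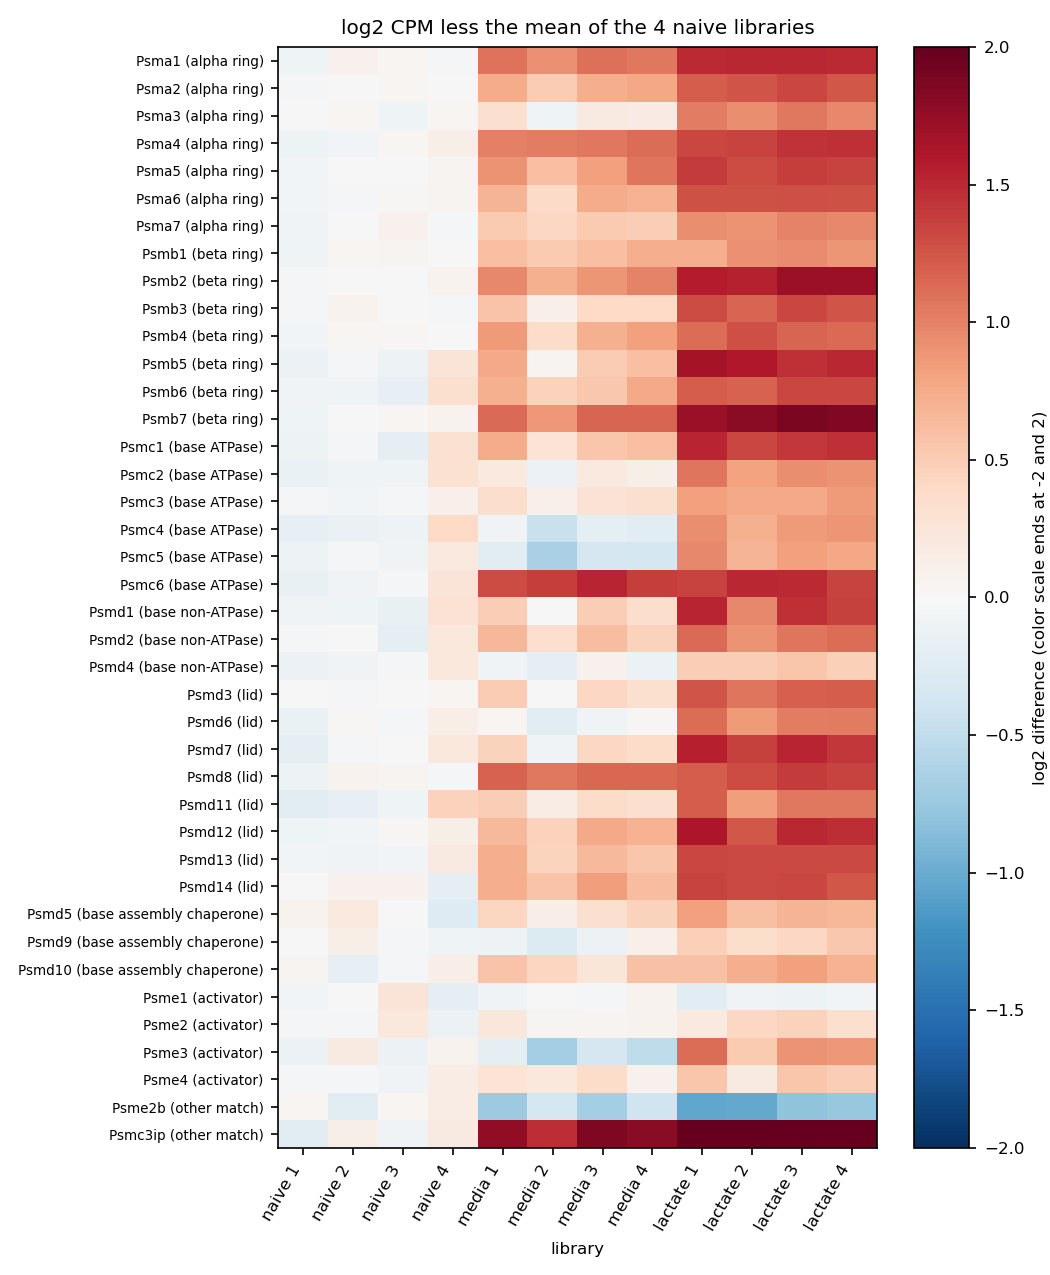
Log2 CPM of each proteasome gene in each of 12 libraries less the mean of the 4 naive libraries, grouped by role, with the color scale ending at -2 and 2. Psmc3ip lies above 2 with lactate and is drawn at the end of the scale, and media 2 is the lowest media library for 34 of 40 genes.

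Levels between genes were compared per gene length, in TPM (counts divided by the gene lengths of the table and scaled to 1000000 per library). For Psma3 and Psmb5 these lengths, 3894 and 899 bases, equal the bases of all annotated exons. The order of genes in TPM depends on the lengths used. By CPM, Psmb5 was below Psma3 in every library. The median TPM of the core genes ran from 88.2 to 98.3 in the naive libraries, 175 to 186 in media and 209 to 219 with lactate. The base and lid median ran from 86.01 to 103, 109 to 138 and 192 to 228. In media the core median was above the base and lid median in every library, whereas naive and lactate libraries had them in a common range. The ratio of the highest to the lowest base and lid gene was 5.15 to 6.83 in media, 3.63 to 4.17 with lactate and 4.43 to 4.99 in naive cells. The core ratio was 4.13 to 4.81, 5.42 to 6.13 and 5.05 to 5.79 in naive, media and lactate libraries.

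Averaged over all 12 libraries, Psmb2 and Psma6 had nearly the same TPM (means 358.0 and 357.5), the highest of the core, and Psma3 the lowest (71.5). The order differed between groups: Psma6 was the highest core gene in all 4 naive libraries and in media replicate 3, and Psmb2 in the other 7 libraries, while the lowest was Psmb5 in naive replicates 1 to 3 and Psma3 in the other 9. Psmb2 stood at 182, 177, 185 and 205 TPM in the naive libraries, 379.5, 314, 355 and 358 TPM in media and 539, 515, 541 and 545 TPM with lactate. Psma3 stood at 54.1, 53.1, 50.8 and 58.3 TPM in the naive libraries, 69.97, 52.5, 63.1 and 58.3 TPM in media and 107, 97.6, 99.8 and 94.2 TPM with lactate. The ratio of Psmb2 to the core median was 1.96 to 2.09 in naive, 1.79 to 2.05 in media and 2.40 to 2.61 in lactate libraries, and that of Psma3 0.544 to 0.613, 0.300 to 0.378 and 0.452 to 0.487. Among regulators, Psme1 stood at 429, 426, 531 and 405 TPM in the naive libraries, 443, 460.3, 445 and 453 TPM in media and 376, 403, 370.2 and 385 TPM with lactate, the highest in 11 libraries, while Psme3 was above it in lactate replicate 1 (456 TPM). Psmd9 stood at 11.1, 11.3, 10.6 and 10.8 TPM in the naive libraries, 10.6, 9.26, 10.3 and 11.3 TPM in media and 14.7, 13.2, 12.9 and 14.2 TPM with lactate, the lowest regulator in all 8 activated libraries. In the naive libraries Psmc3ip was lower still, at 5.10, 6.14, 5.64 and 7.04 TPM. Psme1 stood at 4.12 to 5.69 times the core median in naive libraries, 2.39 to 2.63 in media and 1.72 to 1.88 with lactate. Psmc5 was 1.94 to 2.32 times the core median in naive, 0.711 to 0.925 in media and 1.34 to 1.64 in lactate libraries, and Psmc6 0.828 to 1.04, 1.15 to 1.31 and 0.898 to 1.04.

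The inducible catalytic subunits, which replace the constitutive ones in immunoproteasomes, were measured beside them. Between lactate and media, edgeR and limma voom called 0 of the 3 at an adjusted p of at most 0.01 and DESeq2 1, Psmb9, and each of the tools gave 1, Psmb9, at an unadjusted p under 0.05. Psmb8 (ENSMUSG00000024338, chr17:34197721-34201454, plus strand), the counterpart of Psmb5, stood at 260.3, 276, 319 and 170.3 CPM in the naive libraries, 450.1, 417, 428 and 464 CPM in media and 449.8, 545, 489 and 468 CPM with lactate. Its media and lactate libraries overlapped (log2 fold change 0.15 ± 0.15 SE, adjusted p = 0.472). Psmb9 (ENSMUSG00000096727, chr17:34181987-34187764, minus strand), the counterpart of Psmb6, stood at 109, 114, 143 and 72.2 CPM in the naive libraries, 228, 245, 211 and 215 CPM in media and 143, 187, 139 and 156 CPM with lactate. Every lactate library was below every media library, with a log2 fold change of -0.52 ± 0.17 SE, adjusted p = 0.0266. This passed with DESeq2 (0.00604) and with a fit of those groups alone (0.0023) and without naive replicate 4 (0.00244), with adjusted p from 0.0023 to 0.218 over its 24 alternatives. Psmb10 (ENSMUSG00000031897, chr8:105935735-105938444, minus strand), the counterpart of Psmb7, stood at 90.1, 87.1, 117 and 59.4 CPM in the naive libraries, 56.2, 53.7, 46.3 and 56.2 CPM in media and 54.2, 55.7, 48.2 and 50.6 CPM with lactate. Its media and lactate libraries overlapped (log2 fold change -0.025 ± 0.16 SE, adjusted p = 0.931). Against naive cells, media were higher in Psmb8 (0.78) and Psmb9 (1.04) and lower in Psmb10 (-0.74).

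As TPM ratios within a library, Psmb5 to Psmb8 was 0.147 to 0.351 in naive, 0.125 to 0.187 in media and 0.279 to 0.353 in lactate libraries. Psmb6 to Psmb9 was 0.899 to 2.49, 0.804 to 1.12 and 1.74 to 2.62, and Psmb7 to Psmb10 0.252 to 0.506, 0.975 to 1.39 and 1.75 to 2.19. In all 3 pairs the lactate ratios were above the media ratios without overlap. Naive replicate 4 was the highest naive library in each, and the other naive libraries reached at most 0.177, 1.26 and 0.329. The sum of the constitutive over the sum of the inducible genes was 0.328 to 0.804, 0.450 to 0.553 and 0.787 to 0.958, with naive libraries other than replicate 4 at most 0.419. In the same order, the ratio of Psme3 to Psme1 was 0.372 to 0.583, 0.299 to 0.449 and 0.725 to 1.21.

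Of 39 other genes of the pathway, 11 were higher and 1 lower with lactate than in media, where 13.9% and 11.1% of all genes tested were. The assembly chaperone genes of the core included Psmg3, at a log2 fold change of 1.38 ± 0.19 SE, adjusted p = 0.00024, Pomp, needed for core maturation (0.56 ± 0.13 SE, adjusted p = 0.00428), and Psmg2 (0.52 ± 0.13 SE, adjusted p = 0.0065). The call of Pomp was lost with donors as a block (0.0822), and without media replicate 2, 3 or 4 (0.0168, 0.0119 and 0.0119) and without lactate replicate 3 or 4 (0.0161 and 0.0114), with adjusted p from 0.000132 to 0.0822 over its 24 alternatives. That of Psmg2 was lost with size factors of DESeq2 (0.0103), with upper-quartile factors (0.0111), with total counts (0.0151) and with donors as a block (0.033), and without naive replicate 2 or 3 (0.0107 and 0.0117), without media replicate 2, 3 or 4 (0.0201, 0.012 and 0.0233) and without lactate replicate 1, 2 or 3 (0.0196, 0.0177 and 0.0229), with adjusted p from 0.002 to 0.033 over its 24 alternatives.

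The other 8 genes called higher with lactate encode factors of ubiquitin handling around the proteasome. The ubiquitin receptor gene Adrm1 and its deubiquitinase partner Uchl5 had log2 fold changes of 0.98 ± 0.10 SE and 0.98 ± 0.10 SE (adjusted p = 6.36e-05 for both). In media against naive cells, Adrm1 was lower (-0.80 ± 0.10 SE, adjusted p = 2.07e-05) and Uchl5 higher (0.94 ± 0.10 SE, adjusted p = 5.31e-06). The shuttle receptor genes Rad23b and Ubqln1 had log2 fold changes of 0.47 and 0.45, the ubiquitin-activating enzyme Uba1 0.54 and the Vcp cofactor Nsfl1c 0.61. With donors as a block, Rad23b (0.40, adjusted p = 0.0463), Ubqln1 (0.40, adjusted p = 0.0285), Uba1 (0.47, adjusted p = 0.0172) and Nsfl1c (0.57, adjusted p = 0.0135) missed the threshold, each at the highest adjusted p of its 24 alternatives, the lowest being 0.000192, 3.5e-05, 9.45e-07 and 5e-08. Rad23b also lost its call without lactate replicate 3 or 4 (0.0111 and 0.0106), with adjusted p from 0.000192 to 0.0463 over its 24 alternatives. The deubiquitinase Usp14 (0.52 ± 0.14 SE, adjusted p = 0.00913) lost it with size factors of DESeq2 (0.0148), with upper-quartile factors (0.0101), with total counts (0.0188), with the title number as a block (0.017) and with donors as a block (0.0264), and without naive replicate 1, 2 or 3 (0.0111, 0.0131 and 0.0139), without media replicate 1, 2 or 4 (0.0124, 0.0333 and 0.033) and without lactate replicate 1, 2, 3 or 4 (0.0299, 0.0187, 0.0182 and 0.0108), with adjusted p from 0.00465 to 0.0333 over its 24 alternatives. The ligase Ube3c (0.43 ± 0.10 SE, adjusted p = 0.00491) lost it with donors as a block (0.0652), and without media replicate 1, 2, 3 or 4 (0.0109, 0.0179, 0.0104 and 0.0116) and without lactate replicate 1, 3 or 4 (0.0166, 0.0185 and 0.0186), with adjusted p from 0.000927 to 0.0652 over its 24 alternatives.

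Nfe2l1, the transcription factor known to raise proteasome genes, had a log2 fold change of 0.088 ± 0.13 SE, adjusted p = 0.631 between lactate and media, and Nfe2l2, a factor of the antioxidant response, of 0.055 ± 0.13 SE, adjusted p = 0.766. Ngly1, the deglycosylase that acts on Nfe2l1, was the gene that was lower with lactate (-0.56 ± 0.13 SE, adjusted p = 0.00543). Its call was lost with donors as a block (0.078), and without media replicate 2, 3 or 4 (0.0193, 0.0143 and 0.011) and without lactate replicate 1, 2, 3 or 4 (0.0178, 0.0113, 0.015 and 0.0149), with adjusted p from 0.000104 to 0.078 over its 24 alternatives. Against naive cells, Nfe2l2 was lower in media (-1.22 ± 0.13 SE, adjusted p = 3.08e-06), and Nfe2l1 (0.51 ± 0.13 SE, adjusted p = 0.00386) and Ngly1 (0.52 ± 0.13 SE, adjusted p = 0.00411) were higher. The latter calls were not kept in every alternative. That of Nfe2l1 was lost with a fit of those groups alone (0.0131), and without naive replicate 1, 2 or 3 (0.01, which is above the threshold before rounding, 0.0367 and 0.0375), without media replicate 1 or 3 (0.0145 and 0.0149) and without lactate replicate 3 or 4 (0.0142 and 0.013), with adjusted p from 0.000725 to 0.0375 over its 23 alternatives. That of Ngly1 was lost with a fit of those groups alone (0.0144), and without naive replicate 2 (0.0186), without media replicate 2, 3 or 4 (0.0132, 0.0106 and 0.018) and without lactate replicate 3 or 4 (0.0127 and 0.0127), with adjusted p from 0.00114 to 0.0186 over its 23 alternatives.

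The 40 genes lie on 15 chromosomes, 10 of them on chromosome 11. In the GRCm38 annotation, 6 members share more than 5% of their exon bases with another gene: Psmb5 with Mir686 on the same strand (12.1%), and on the opposite strand Psmb7 with Nek6 (11.8%), Psmc3 with Slc39a13 (8.25%), Psmc3ip with Mlx (21.2%), Psmd13 with Sirt3 (10.1%) and Psmd9 with the noncoding Gm26745 (25.5%). The same holds for 5 other genes with values given here, Psmg3 with Gm26938 on the same strand (9.68%), and on the opposite strand Usp14 with Thoc1 (26.0%), Psmb8 with the antisense gene Gm20496 (14.7%), Rps27a with Clhc1 (8.11%) and Psmb9 with Tap1 (5.79%). The libraries were made with a stranded kit, but whether counting used the strand is not given in the sources used here, so their values may hold reads of the partner gene.

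Promoters were compared because most members moved together. Of 40 members, 34 had an entry in the RefSeq promoter table (GRCm38.p6), with 37 promoters. Psmb1, Psmb2, Psmb7, Psmc3, Psmd3 and Psmd7 had none. The 250 bases before the start were searched on both strands for 6 motifs. The ETS core CCGGAAG was in 35.1% of the members' promoters, against 6.91% of all 32851 promoters and 13.6% of the promoters of genes in the count table. It was in 12 of 25 regulator promoters and 1 of 12 core promoters. These are promoters, not genes. The 12 include Psmc3ip and more than 1 promoter of Psmc2, of which 1 starts 1464 bases from the nearest annotated start. The core match was at 1 of the promoters of Psma6, whose other promoter had none. The antioxidant response element core TGACNNNGC was in 13.5%, against 10.2% of all promoters and 11.8% of those of genes in the table, at Psmb5, Psmb6, Psmc6, Psmd9 and Psmd12. CCAAT was in 35.1% (33.8% and 35.5%), the GC box GGGCGG in 56.8% (32.7% and 56.4%), the NRF1 core GCATGCGC in 5.41% (2.26% and 4.29%) and the E-box CACGTG in 8.11% (6.02% and 8.23%). A match describes these letters and no binding was measured.

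The windows of Psmb5 and Psmb6, catalytic genes that rose with lactate and hold TGACNNNGC, of Psmc6, which holds it but did not pass the test, and of Psme3, the member with the largest change and without it, are shown 5′ to 3′ with every motif match on either strand in capitals. Psmd9 and Psmd12, which also hold TGACNNNGC and were called higher with lactate, are not shown. Bases of annotated transcripts were left out, and in Psmc6 a CCGGAAG abuts a GGGCGG.
Psmb5 promoter, chr14:54618023-54618245, minus strand: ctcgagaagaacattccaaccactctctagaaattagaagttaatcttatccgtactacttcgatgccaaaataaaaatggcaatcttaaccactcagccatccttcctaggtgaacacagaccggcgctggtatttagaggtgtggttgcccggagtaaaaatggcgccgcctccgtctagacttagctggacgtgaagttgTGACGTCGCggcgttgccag
Psmb6 promoter, chr11:70525107-70525356, plus strand: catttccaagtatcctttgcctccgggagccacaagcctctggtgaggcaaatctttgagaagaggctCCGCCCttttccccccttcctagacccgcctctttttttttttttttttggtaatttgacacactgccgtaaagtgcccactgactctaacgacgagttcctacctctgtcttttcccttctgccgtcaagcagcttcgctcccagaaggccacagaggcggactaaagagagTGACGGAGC
Psmc6 promoter, chr14:45329574-45329787, plus strand: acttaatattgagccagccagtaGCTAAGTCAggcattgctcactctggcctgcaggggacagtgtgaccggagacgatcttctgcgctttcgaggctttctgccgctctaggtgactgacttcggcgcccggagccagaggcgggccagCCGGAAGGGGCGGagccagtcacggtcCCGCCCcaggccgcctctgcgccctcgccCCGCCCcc
Psme3 promoter, chr11:101315963-101316212, plus strand: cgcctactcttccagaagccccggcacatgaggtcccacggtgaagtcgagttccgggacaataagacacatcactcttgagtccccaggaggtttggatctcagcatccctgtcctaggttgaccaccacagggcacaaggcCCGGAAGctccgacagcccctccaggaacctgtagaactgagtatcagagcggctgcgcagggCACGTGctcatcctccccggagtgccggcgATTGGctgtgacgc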

How the data were processed

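The authors deposited raw read counts per gene for the 12 libraries, made from stranded mRNA libraries. By the submitters' processing notes, reads were demultiplexed with bcl2fastq 2.20.0.422, mapped to GRCm38 with STAR 2.7.5b and counted with featureCounts. The methods of the study add that duplicate reads were discarded and that counting was limited to exonic reads with a single place in the genome.

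From these counts, 1 model of all 12 libraries was fitted with edgeR 4.0.16 in R 4.3.3 (TMM scaling, quasi-likelihood F-test, two-sided, Benjamini-Hochberg adjustment over all genes tested, threshold 0.01), on genes with at least 1 CPM in at least 3 libraries. Standard errors were obtained as log2 fold change over root F. CPM values were scaled by TMM, log2 CPM used a prior count of 2, and TPM used the gene lengths of the deposited table. Alternatives used DESeq2 1.42.0, limma 3.58.1 (voom), other scalings, filters and thresholds, each pair of groups alone, blocks, a term for the library numbers, and each library left out. The edgeR fit was tested on simulated counts for lactate against media (13270 genes, dispersion 0.02, below the 0.0553 of the data), where it called 42 of 67 genes changed 1.5-fold, 67 of 67 changed 2-fold and 66 of 66 changed 4-fold. Tables and plots were made with Python 3.11.15 and matplotlib 3.10.9.

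Libraries with the same number in their titles correlated at 0.374, 0.297, 0.0038 and 0.553 in their deviations from the group means. Pairs from 1 mouse, by the donor tags of the record read within each range of library numbers, correlated at 0.374, 0.211 and 0.553. The values 0.374 and 0.553 belong to the same libraries under both pairings. The other donor pair, lactate replicate 2 with media replicate 3, had 0.211, between the 0.297 and 0.0038 of title numbers 2 and 3. These correlations cannot decide between the pairings, and the pairing of 3 mice rests on the donor tags.

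Values in every library were given for the catalytic subunits, the members with the largest and smallest lactate change per role, all Psme genes, the base chaperones, members called lower or called with a sign against their role's median, and the most and least abundant core and regulator genes per length. Among other pathway genes, those called with lactate and Pomp, Nfe2l1, Nfe2l2 and the inducible subunits were named. Members and lists were chosen with earlier results of these data known, and some genes of the lists are not reported here. Gene coordinates come from GENCODE M21 (GRCm38) and promoter sequences from RefSeq (GRCm38.p6).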

Additional observations from a re-analysis of the deposited data

Results flagged for a closer look

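In 15 of 171 groups of 4 libraries, 1 library stood apart from the other 3 by Dixon's test, where chance alone gives about 1 in 20 groups, or 8.6 here. Naive replicate 4 was that library for 8 genes, each time above the other naive libraries: Psmb6 (91.8 CPM against 65.6 to 70), Psmc2 (91.7 CPM against 67.6 to 69.9), Psmc3 (119 CPM against 106 to 108), Psmc4 (115 CPM against 78.5 to 81.5), Psmd1 (105 CPM against 77.5 to 81.8), Psmd11 (112 CPM against 71.2 to 77), Psmd13 (77.7 CPM against 65.3 to 66.2) and Ube3c (67.8 CPM against 60.4 to 60.9). Naive replicate 2 lay above the others for Psmb3 (48.9 CPM against 45.7 to 46.1).

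In the media group, replicate 2 lay below the other libraries for Psma2 (136 CPM against 158 to 162), Psmb7 (105 CPM against 126 to 129.8) and Ube3c (50.9 CPM against 57.7 to 59.1), and replicate 1 above them for Psme2 (161 CPM against 144 to 146). With lactate, replicate 3 lay above the others for Psma6 (196.3 CPM against 194.1 to 194.3), and replicate 2 lay below the others for Uba1 (705 CPM against 835 to 850.3). The genes are not independent of each other, since they were measured in the same libraries.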

How the results depend on the processing

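Of the 40 members, the number called higher with lactate than in media ran from 19 to 33 over 24 alternatives. The replicate block by donor, a fit that compares the conditions within the 3 mice that gave both, gave 19 in place of 31. The cause of this fall was not tested. The donor block lost the calls of 12 members and of 9 other pathway genes and of the CD3 genes Cd3d, Cd3e and Cd3g. Among the genes named, it changed no other call of lactate against media. Leaving out each library gave 28 to 32. The number lower in media than in naive cells, 2, became 3 with the DESeq2 test and with its size factors in edgeR, 1 with total counts, 0 with the 2 groups alone and 1 with the replicate block by title number, and 0 to 3 with each library left out, and the cause was not tested. The number higher in media than in naive cells ran from 18 to 26, and that higher with lactate than in naive cells from 35 to 38. The core median of lactate against naive, 1.27, was 1.17 with the DESeq2 test and 1.17 with its size factors in edgeR. The other core and regulator medians moved by less than the spread between replicates, although that of the regulators in media against naive, 0.30, was 0.19 without naive replicate 2.

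Signs turned only in genes without a call. For lactate against media, Psmc6 was -0.0055 with DESeq2, -0.0054 with its size factors, -0.013 with total counts and -0.00032 with the donor block, and -0.0021 to 0.069 with each library left out. Psmb10 was 0.021 with the donor block, 0.024 with a term for the library numbers and -0.086 to 0.0096 with libraries left out, and Nfe2l2 -0.043 to 0.14. For media against naive, libraries left out gave -0.18 to 0.0030 for Nsfl1c, -0.024 to 0.20 for Psmc2, -0.11 to 0.0053 for Psme1 and -0.12 to 0.018 for Ubqln1. The cause was not tested.

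Depth was similar between groups. The main limits are 4 libraries per group, 3 shared mice, RNA of other cells in the naive libraries, and 1 lactate dose and time without a sodium chloride control. Levels of RNA say nothing of protein or of proteasome activity, which were not measured in these data.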

Other observations

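The other pathway genes were also compared between media and naive cells by edgeR's quasi-likelihood test, which called 28.5% of all genes tested higher and 29% lower. Of 6 core assembly and inhibitor genes, 3 were higher in media, led by the chaperone gene Psmg1 (log2 fold change 1.51 ± 0.15 SE, adjusted p = 2.77e-06). Another of the 3, Psmg2 (0.49, adjusted p = 0.00474), lost its call in 11 of 23 alternatives, with adjusted p from 0.00129 to 0.0268. Of 13 associated factors, 6 were higher and 2 lower, with Txnl1, a thioredoxin-like protein bound to the regulator, at a log2 fold change of 1.56 ± 0.093 SE, adjusted p = 3.27e-08, and the shuttle gene Ubqln2 at -1.11 ± 0.16 SE, adjusted p = 5.3e-05. Of 4 ubiquitin genes, 3 were higher and 1 lower. The polyubiquitin gene Ubb (-0.74) was lower, and the ribosomal fusion gene Rps27a (0.40) and the activating enzymes Uba1 (0.50) and Uba6 (0.99) higher on the log2 scale. The call of Ubb (adjusted p = 0.00315) was lost with a fit of those groups alone (0.0114) and without media replicate 1 or 3 (0.0106 and 0.0108), with adjusted p from 2.47e-05 to 0.0114 over its 23 alternatives, and that of Rps27a (adjusted p = 0.00366) without naive replicate 1, 2 or 3 (0.0168, 0.0343 and 0.0128), without media replicate 4 (0.0339) and without lactate replicate 3 or 4 (0.0142 and 0.0163), with adjusted p from 0.00105 to 0.0343 over its 23 alternatives. Of 7 transcription genes, 2 were higher and 2 lower, and of 6 segregase genes, 2 were higher and 1 lower. Psmg1, Txnl1, Ubqln2 and the ubiquitin genes were chosen after their values were seen. Markers of other cell types fell over the same comparison, and their part was not tested.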
